A study of Homo sapiens with 3 samples.

Results

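The clustered protocadherin genes were taken as the protein-coding genes on chromosome 5 of a RefSeq gene table (assembly GRCh38.p14) whose symbols begin with PCDHA, PCDHB or PCDHG. The rule gave 53 of the 20037 protein-coding genes: 15 in the alpha cluster, 16 in the beta cluster and 22 in the gamma cluster. Within these genes or 1 kb of an end lay 20 of the 106415 broad ATAC-seq peaks of the library. The library came from hCMEC/D3, a human brain microvascular endothelial line that was immortalized and here grown to confluence on rat-tail collagen. It is the ATAC sample of replicate 2 of the series, with no treatment and no second ATAC sample, so each value below describes 1 library and no test between groups was possible. The 2 RNA samples of the same line were not used, because their transcript identifiers could not be joined to genes.

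Clustered protocadherins are cadherin-like adhesion proteins of the cell surface, best known from neurons, where each cell uses its own combination of them and cells recognise each other by it. In the alpha and gamma clusters every gene has its own promoter and its own large first exon, which is spliced to last exons shared by the whole cluster, whereas the beta genes have no shared exons. Most of the promoters carry a conserved element with the core letters CGCT, near which the architectural protein CTCF binds, and promoter DNA methylation is known to keep unused genes silent. The last genes of the alpha and gamma clusters, PCDHAC1, PCDHAC2, PCDHGC3, PCDHGC4 and PCDHGC5, are called C-type and are less subject to this choice in neurons.

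The sequence around the CGCT core is shown first, as a feature of the member promoters. Each line gives 30 bases of the gene's own strand (plus, RefSeq, GRCh38.p14), 5′ to 3′, with CGCT in capitals. Where a promoter held CGCT more than once, the stretch most alike those of the same cluster was taken. Not every stretch resembles the conserved element: against the other stretches of its cluster a median gene had 17.9 identical bases of 30 in alpha, 20.3 in beta and 19.1 in gamma, the core included, but PCDHAC1 had 11, PCDHAC2 12.8 and PCDHGC4 14.0. These 3 lines, like those of PCDHB1 (11.5) and PCDHGB7 (11), which are not printed, show a CGCT and not a clear match to the element. For PCDHGB7 this holds for the chosen stretch only. Further upstream its promoter has letters close to the PCDHGB6 stretch printed below, with CGCC in place of CGCT, which the search for CGCT passed over. The first 3 genes are alpha genes without a peak at the start, PCDHAC1 and PCDHAC2 are the alpha genes with one, and the next 3 are beta genes, none of which had one. Of the gamma genes, PCDHGA9, PCDHGA10, PCDHGB4, PCDHGB6 and PCDHGC3 had a start peak and PCDHGA4, PCDHGA5 and PCDHGC4 had none.
PCDHA2 (chr5:140794775-140794804): cttccttttagccacatgatgtCGCTgtcc
PCDHA8 (chr5:140841124-140841153): accttttgaagccacatgatgtCGCTgtct
PCDHA12 (chr5:140875238-140875267): tacataatcagtcacatgatgtCGCTctac
PCDHAC1 (chr5:140926214-140926243): ccttaagcctagaaggtgtggtCGCTcacg
PCDHAC2 (chr5:140966359-140966388): gagaggctgagcagtccgggttCGCTgtcc
PCDHB5 (chr5:141135173-141135202): agtaaattaggacgcctggtggCGCTgcag
PCDHB13 (chr5:141213859-141213888): atcctgtgaggacgcgtggtggCGCTgcag
PCDHB16 (chr5:141182304-141182333): actcagtgagaacgcgtggtggCGCTgcag
PCDHGA9 (chr5:141402708-141402737): aacggcttaggactctgagcgcCGCTgttg
PCDHGA10 (chr5:141412925-141412954): aacttcttaggactctgagcgcCGCTgttc
PCDHGB4 (chr5:141387611-141387640): tcctagtgctgactctgggcgcCGCTgttg
PCDHGB6 (chr5:141407918-141407947): cccgcacggagcctctgggcgcCGCTgtcg
PCDHGC3 (chr5:141475874-141475903): tattggctgggactctgtgtgcCGCTgtcg
PCDHGA4 (chr5:141354954-141354983): aacaggttaagactctgggtgtCGCTgttc
PCDHGA5 (chr5:141364101-141364130): cactggttaggactctgagtgtCGCTgttg
PCDHGC4 (chr5:141484946-141484975): cctattggctgagcccgggagcCGCTgtct

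The letters just before the core differed by cluster. The letters GATGTCGCT, searched on both strands of the 300-base promoters, were in 9 of 13 alpha promoters and in 0 of 14 beta and 0 of 20 gamma promoters. GGTGGCGCT was in 13 of 14 beta promoters, all but PCDHB1, and in none of the alpha or gamma promoters, and GCGNCGCTG was in 13 of 20 gamma promoters and in none of the others. These 3 strings, each of which contains the core, were chosen by reading the sequences; over the 15842 promoters of protein-coding genes they occurred in 0.139%, 0.656% and 4.93%. The core alone was in 46 of the 47 member promoters, PCDHA9 being the exception, and in 81.0% of all promoters of that length. The promoter table held 47 of the 53 members, and PCDHA3, PCDHA13, PCDHB6, PCDHB11, PCDHGA12 and PCDHGC5 had no entry.

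Accessibility was unequal among the clusters. A peak within 1 kb of the gene's own start was called for 18 of the 53 members (34.0%, 95% Wilson interval 22.7% to 47.4%, counting error only), and for 71.2% of the 15846 protein-coding genes of known strand. By cluster these were 2 of 15 alpha genes, 0 of 16 beta genes and 16 of 22 gamma genes (72.7%). The gamma share was thus near that of all protein-coding genes, and the alpha and beta shares were below it. The nearness depended on weak peaks: with peaks of at least 20 tags of pileup only, a filter chosen after seeing the data, gamma had 6 of 22 genes against 62.7% of protein-coding genes, and alpha and beta had none. In peaks per Mb, counting each peak once over the genes and 1 kb around them, alpha had 8.76, beta 0 and gamma 97.6, compared with 49.7 over all protein-coding genes. Peaks covered 5.44% of the gamma stretch and 0.629% of the alpha stretch, compared with 3.08% for all protein-coding genes. Both measures depend on how closely gene starts are packed. The gamma stretch holds 22 genes in 184 kb, compared with 20037 genes in 1294135 kb overall. Of the 18 gamma peaks 16 were start peaks. By the wider rule, a peak anywhere in the gene or within 1 kb of an end, all 15 alpha genes and all 22 gamma genes counted, as did 83.7% of protein-coding genes. For alpha and gamma this follows from shared sequence: PCDHA1, the first alpha gene, runs through to the common last exon and so contains the peaks at PCDHAC1 and PCDHAC2.

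**Figure D1:**
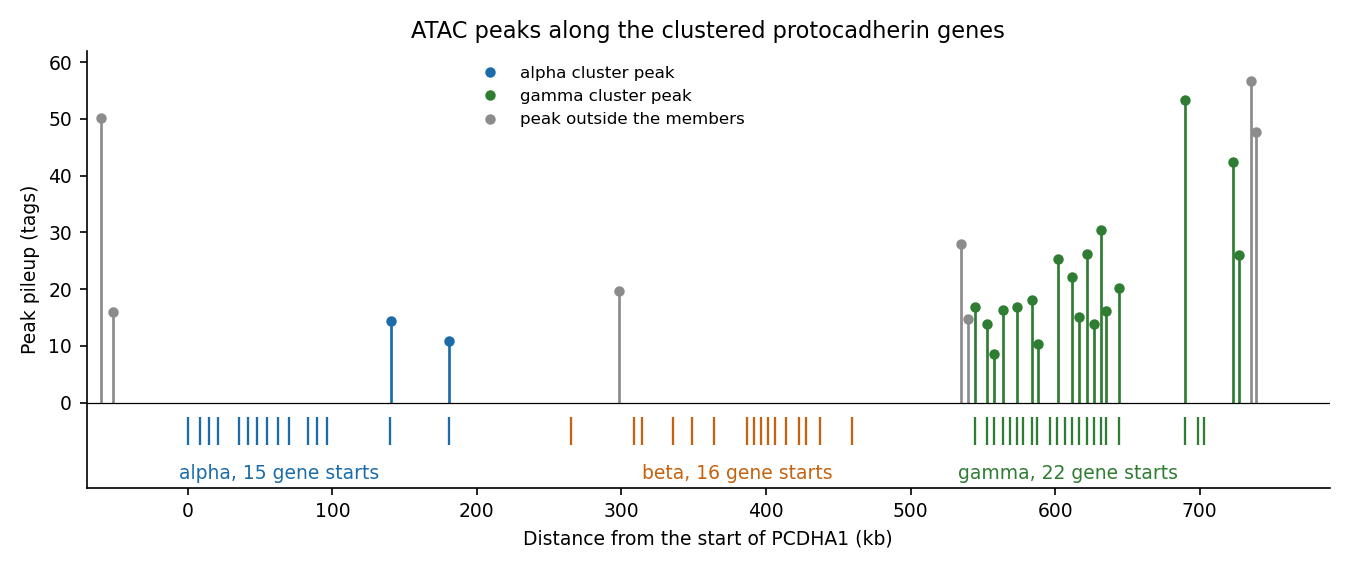
Position of each peak along the 3 clusters (horizontal axis, kb from the start of PCDHA1) and its pileup in tags (vertical axis). Ticks below the axis mark the gene starts, and grey peaks lie up to about 60 kb before or 20 kb after the clusters and in no member. Peaks stand over most gamma starts, over the last 2 alpha starts and over no beta start.

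The alpha cluster had peaks only at its C-type genes. PCDHAC1 had a peak at chr5:140926223-140926962, to which the caller gave 14.4 tags of pileup, its measure of read coverage, and a 4.55-fold enrichment over the local background. PCDHAC2 had one at chr5:140966310-140967004, where the pileup was 10.9 tags and the enrichment 3.52-fold. The call at PCDHAC2 was lost with −log10 q of at least 5 and with a fold of at least 4, and both calls were lost with at least 20 tags. Both peaks were weak, at the 26.2th and 8.55th percentile of the pileup of all 106415 peaks, although at 740 and 695 bp they were wider than the median peak of 452 bp. The 13 other alpha genes, PCDHA1 to PCDHA13, had no start peak. Their starts all lay in a single stretch of 191.5 kb without any peak, compared with a median distance of 8.78 kb between neighbouring peaks of the list, which makes it the 97th longest of 5716 gaps on the chromosome. PCDHA2 illustrates such a start. The 250 bases before its start follow together with those of PCDHAC1, with each CGCT in capitals:
PCDHA2 (chr5:140794602-140794851): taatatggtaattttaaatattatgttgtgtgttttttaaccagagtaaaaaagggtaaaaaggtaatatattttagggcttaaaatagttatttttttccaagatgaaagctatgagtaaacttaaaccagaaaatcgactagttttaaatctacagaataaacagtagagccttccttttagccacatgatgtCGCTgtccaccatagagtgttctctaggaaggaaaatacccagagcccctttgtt
PCDHAC1 (chr5:140926049-140926298): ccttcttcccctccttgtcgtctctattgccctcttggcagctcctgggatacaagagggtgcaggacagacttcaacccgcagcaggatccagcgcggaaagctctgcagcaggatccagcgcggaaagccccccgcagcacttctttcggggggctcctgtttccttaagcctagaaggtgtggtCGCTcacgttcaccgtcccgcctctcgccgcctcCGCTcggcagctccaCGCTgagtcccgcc

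Over the 300 bases of the promoter table PCDHA2 had 34.3% G and C and PCDHAC1 66.0%. The 2 promoters thus differ in composition as well as in accessibility, and in PCDHAC1 the core occurred 3 times on the gene's strand.

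No beta gene had a peak at its start, in the gene or within 1 kb of an end. The starts of PCDHB2 to PCDHB16 (15 genes) lay in a stretch of 235.4 kb without a peak, the 73rd longest gap on chromosome 5. PCDHB1 lay in another, of 117.5 kb. For PCDHB6 and PCDHB11, whose strand was not known, both ends were examined. The only peak between the first and the last beta gene, at chr5:141084506-141084752, had a pileup of 19.6 tags and its midpoint lay at -9.99 kb from the start of PCDHB2, with no gene of the table within 1 kb. The lowest pileup in the whole list was 8.0 tags, so weaker signal at a start could not be seen at this depth, and an unlisted start is not shown to be closed.

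The gamma cluster holds interleaved A-type and B-type genes followed by the C-type genes. All 7 B-type genes had a start peak, with pileups from 16.3 to 30.5 tags and a median of 22.2. In genomic order the pileup was 16.3 tags at PCDHGB1 (chr5:141349935-141350222), 16.8 at PCDHGB2 (chr5:141359878-141360320) and 18.1 at PCDHGB3 (chr5:141370048-141370353). These first 3 were the lower part of the B-type range. It was 25.3 tags at PCDHGB4 (chr5:141387476-141388258), 22.2 at PCDHGB5 (chr5:141397748-141398414), 26.1 at PCDHGB6 (chr5:141407847-141408164) and 30.5 at PCDHGB7 (chr5:141417484-141418207). The 4 B-type genes nearest the end of the cluster were therefore each above the 3 before them. PCDHGB6 had the highest fold of all members, 8.05.

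Of the 12 A-type genes, 8 had a start peak, with pileups from 8.51 to 20.2 tags and a median of 14.5. The highest was at PCDHGA12 (chr5:141430356-141430915), the last A-type gene, with 20.2 tags. PCDHGA1, the first, had 16.8 tags at chr5:141330339-141330742, and PCDHGA11 had 16.1 at chr5:141420908-141421152. The ranges of A-type and B-type peaks overlapped, from 16.3 to 20.2 tags, with PCDHGA1, PCDHGA12, PCDHGB1, PCDHGB2 and PCDHGB3 in that range. The middle of the range was PCDHGA9 with 15.01 tags (chr5:141402634-141403025), PCDHGA2 with 13.9 (chr5:141338648-141339058) and PCDHGA10 with 13.8 (chr5:141412851-141413082). The weakest were PCDHGA6 with 10.4 tags (chr5:141373796-141374192) and PCDHGA3 with 8.51 tags (chr5:141343828-141344161), the latter close to the minimum of the list. PCDHGA4, PCDHGA5, PCDHGA7 and PCDHGA8 had no start peak, and each lies beside a B-type gene that had one. The A-type count depended on the peak filter: with −log10 q of at least 5, or with a fold of at least 4, it was 4 of 12, without PCDHGA3, PCDHGA6, PCDHGA10 and PCDHGA11, while the B-type count was still 7 of 7. With at least 20 tags both types lost calls: the A-type count was 1 of 12, PCDHGA12, and the B-type count 4 of 7, without PCDHGB1, PCDHGB2 and PCDHGB3.

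Among the C-type genes PCDHGC3, known from neurons and glia, had the strongest and widest start peak of all members. It ran over 1277 bp (chr5:141475657-141476933) with a pileup of 53.3 tags, the 90.1th percentile of all peaks, and a fold of 6.10. The next highest was PCDHGB7 with 30.5 tags. PCDHGC4, known to be needed for the survival of cortical interneurons, and PCDHGC5 had no start peak, and the stretch from the PCDHGC3 peak to the next peak, 32.1 kb, held both starts. The 250 bases before the start of PCDHGC3 and PCDHGC4 are shown because both are rich in G and C (59.0% and 60.7% over 300 bases) and only the first had a peak. Capitals again mark CGCT:
PCDHGC3 (chr5:141475716-141475965): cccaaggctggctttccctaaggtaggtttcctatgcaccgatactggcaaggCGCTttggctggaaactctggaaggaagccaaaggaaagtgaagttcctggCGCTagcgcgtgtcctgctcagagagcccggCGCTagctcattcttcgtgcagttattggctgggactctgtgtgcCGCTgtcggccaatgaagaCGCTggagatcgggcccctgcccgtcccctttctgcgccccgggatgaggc
PCDHGC4 (chr5:141484780-141485029): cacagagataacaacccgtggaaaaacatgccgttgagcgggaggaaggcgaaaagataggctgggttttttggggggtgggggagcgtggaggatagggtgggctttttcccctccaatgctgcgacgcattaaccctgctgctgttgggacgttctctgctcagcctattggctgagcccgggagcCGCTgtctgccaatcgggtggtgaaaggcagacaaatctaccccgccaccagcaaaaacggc

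CGCT occurred 5 times before the start of PCDHGC3 and 1 time before that of PCDHGC4. Over the members, more copies did not always go with a peak. PCDHGA1 and PCDHGB7 had 1 copy and a start peak, whereas PCDHB2 and PCDHGA5 had 2 copies and none. A relation between copies and peaks was not tested.

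The start peaks were placed alike. All 18 covered the annotated start, as did 87.5% of the start peaks of 11259 other protein-coding genes. Their midpoints lay from -42 to 329 bp of the start, with a median of 104 bp, so none was near the limit of 1 kb. In 16 of the 17 members with a promoter entry the peak also covered the CGCT of the stretch chosen as above. In PCDHGA3 the peak began at -1 bp and missed it. In these members the CGCT lay at -95 to -40 bp of the start, so most peaks over the start would cover it. The same share for other genes was not computed. In PCDHAC1, PCDHAC2 and PCDHGB7 the stretch was no clear match to the element, and in PCDHGB7 the closer letters, with CGCC as the core, were not the chosen stretch. The peaks were small: the median pileup was 16.5 tags and the median width 407.5 bp, compared with 46.6 tags and 1088 bp at the starts of the other genes. Their median fold was 5.20, compared with 5.07 there. The local background differed, since for 11 of the 18 it was at the lowest level the caller allowed, 2.37 tags, which held for 6.65% of the other start peaks.

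**Figure D2:**
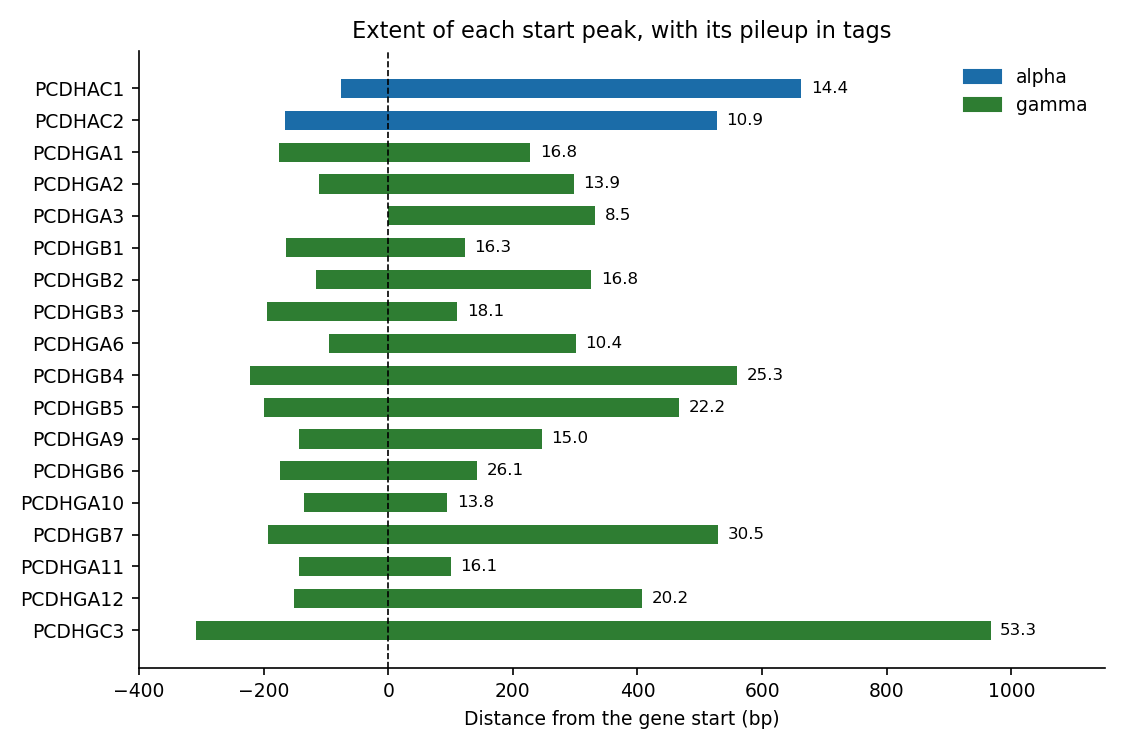
Extent of the peak at each of the 18 members with a start peak (horizontal axis, bp from the gene start; the dashed line is the start), in genomic order from top to bottom, with the pileup in tags beside each bar. Every bar crosses the start, and PCDHGC3 has the widest bar and the highest pileup, 53.3 tags.

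The shared end of the gamma cluster had a peak, and that of the alpha cluster had none. In gamma 2 peaks lay away from the starts: one at chr5:141509057-141509589 with a pileup of 42.3 tags, centred 3652 bp before the common end of the genes, and one at chr5:141512373-141514091 with 26.1 tags, which ran across that end. The first was stronger than every start peak of the members other than that of PCDHGC3. The second was also within 1 kb of an end of DIAPH1, the neighbouring gene for an actin-nucleating formin, and had the lowest fold in the cluster, 2.73. Its −log10 q was 4.44, so the second peak was lost with −log10 q of at least 5 and with a fold of at least 4. Which exon or intron these peaks overlap was not examined, because the gene table gives no exons. With either end of the gene counted in place of the start, the second peak would bring the gamma count to 22 of 22.

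Peaks were also called at genes beside the clusters. TAF7, a subunit gene of the general transcription factor TFIID, lies just before the gamma cluster and had a peak at chr5:141320150-141321285 with 28.0 tags. After the cluster DIAPH1 had peaks of 56.7 and 47.7 tags, in the gene or within 1 kb. Whether these peaks lie at the starts of TAF7 or DIAPH1 was not examined, so they are no like-for-like scale for the member start peaks. The 6 annotated clustered protocadherin pseudogenes, PCDHA14, PCDHB17P, PCDHB18P, PCDHB19P, PCDHGB8P and PCDHGB9P, had no peak in the gene or within 1 kb. PCDHGB8P and PCDHGB9P lie among accessible gamma genes.

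Of 12 listed protocadherins outside the clusters, 6 had a start peak (either end where no strand was known). Of the 10 of known strand it was 5, against 71.2% of all protein-coding genes of known strand. PCDH1, on the same chromosome arm, had 40.3 tags over 1811 bp, and PCDH12, a protocadherin of endothelial cell junctions, had 19.6 tags at chr5:141958078-141958998. Both pileups were within the range of the gamma start peaks, 8.51 to 53.3 tags. PCDH9, PCDH18 and PCDH19 also had a start peak, and PCDH10, of unknown strand, had a peak at an end. PCDH7, PCDH8, PCDH11X, PCDH15, PCDH17 and PCDH20 had no peak at all, in the gene or beside it.

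Of 18 listed regulators of clustered protocadherin promoters, the 15 of known strand all had a start peak, against the background of 71.2% given above, and the 3 others had a peak at an end of the gene. CTCF had a pileup of 75.2 tags, SMCHD1, a silencing protein of the clusters, had 46.3, and DNMT3B, a DNA methyltransferase that methylates these promoters, had 39.9. CTCF was above every member, and SMCHD1 and DNMT3B were above every member but PCDHGC3. The median start peak of other protein-coding genes had 46.6 tags, so SMCHD1 and DNMT3B were not above an ordinary gene start. As a check of the cell label, marker genes of known strand were examined. A start peak was found for 4 of 5 endothelial markers, all but EGFL7, for 4 of 6 neuronal, 1 of 3 astrocyte and 4 of 4 mural markers. The share over all protein-coding genes of known strand was 71.2%, and these lists are short. Where no strand was known either end was searched, and the peak may lie at the far end of the gene. A peak was then found for 5 of 5 endothelial, 1 of 2 neuronal and 1 of 1 astrocyte markers, against 72.8% of all protein-coding genes. Start peaks were thus found at markers of all 4 cell types, and transcript levels of these markers were not examined.

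Other gene families that lie in tandem along a chromosome were measured in the same way, over genes of known strand. A start peak was found for 3 of 135 olfactory receptor genes on chromosome 11 (2.22%, 95% Wilson interval 0.759% to 6.33%), for 3 of 34 keratin genes on chromosomes 12 and 17 (8.82%, 3.05% to 23.0%) and for 3 of 20 HOX genes (15%, 5.24% to 36.0%). The alpha share of 13.3% (3.74% to 37.9%) was within the range of these families, 2.22% to 15%. The beta share was 0%, below all 3, with an interval up to 19.4%. The gamma share of 72.7% (51.8% to 86.8%) lay above their intervals. Genes of a cluster share a library and a neighbourhood, so these intervals are not tests.

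**Figure D3:**
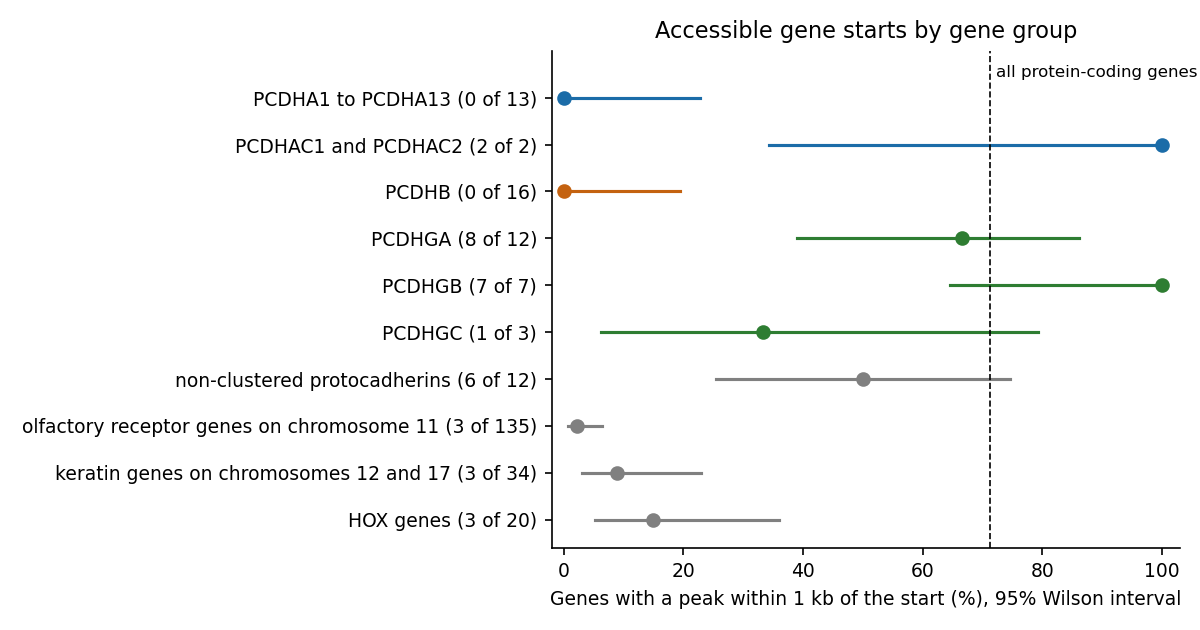
Share of genes with a peak within 1 kb of the start (horizontal axis, percent; bars are 95% Wilson intervals) for each protocadherin group and for 4 other sets, with counts beside the names; either end was used for genes without a known strand. The dashed line is the share over all protein-coding genes, 71.2%; PCDHGA and PCDHGB lie near or above it, and PCDHA1 to PCDHA13 and PCDHB are at 0.

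Promoter composition moved with accessibility across the genome. In all protein-coding genes a start peak was called for 20.8% of those with a promoter GC content under 40%, for 37.0% from 40% to under 50%, for 65.7% from 50% to under 60% and for 85.1% at 60% or more. Member promoters were poor in G and C, with a median of 39.7% and 7 CpG dinucleotides in 300 bases, compared with 62.7% and 22 over all protein-coding genes. The clusters differed within the same class. Under 40%, a start peak was called for 0 of 10 alpha, 0 of 7 beta and 5 of 8 gamma promoters. From 40% to under 50% it was called for 0 of 1, 0 of 7 and 7 of 8. With all called peaks, the alpha and beta counts were at 0 in classes where some genes elsewhere had a peak. The gamma counts were above the shares of those classes. Under 40% the gamma count rested on weak peaks: the 5 had pileups of 8.51 to 16.8 tags. All 5 would be lost with at least 20 tags. From 40% to under 50% PCDHGA2, PCDHGB1, PCDHGB3 and PCDHGA11, with 13.9 to 18.1 tags, would be lost as well. PCDHGB4, PCDHGB5 and PCDHGB7, with 22.2 to 30.5 tags, would stay. Class shares under stricter filters were not computed, so the difference is described for all called peaks only. At 60% or more the 3 members split, with PCDHAC1 (66.0%) and PCDHAC2 (63.0%) accessible and PCDHGC4 (60.7%) not. Within gamma the 15 promoters with a peak had a median GC of 44.3% (36.0% to 59.0%) and the 5 without one 38.7% (32.3% to 60.7%), and the ranges overlapped. What part composition has in the difference between clusters was not tested.

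**Figure D4:**
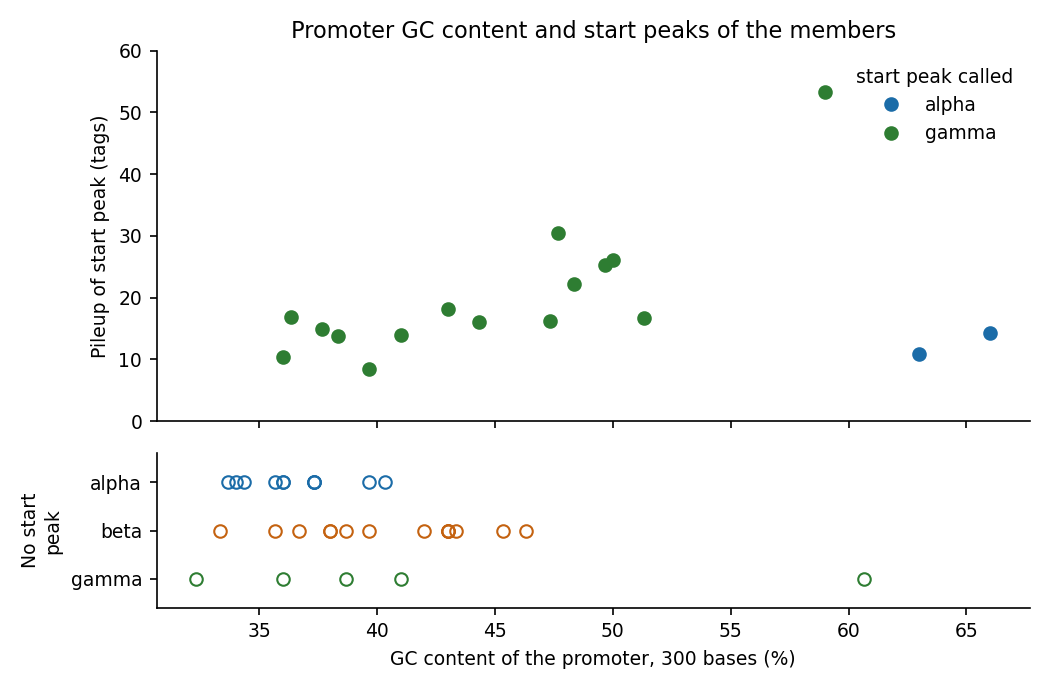
Upper panel: pileup in tags of the start peak (vertical axis) against the GC content of the 300-base promoter (horizontal axis, percent) for the 17 members with a peak and a promoter entry. Lower panel: the GC content of the 30 members without a start peak, by cluster; alpha, beta and gamma promoters between 36% and 41% are found there, and gamma promoters of the same composition also stand in the upper panel.

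Near-identical copies can lose reads when short tags fit several places, so identical shared sequence was counted. Copies with scattered mismatches are not found by this count. Of all 75-base stretches (the tag size in the file header) in the 47 member promoters, only those of PCDHGB4 and PCDHGB5 recurred in another gene's promoter, 4 of 226 in each (1.77%), and both genes had a peak. No alpha or beta promoter shared an identical stretch of this length with any promoter of the table. Gene bodies and other parts of the genome were not examined. Near copies do occur: the promoters of PCDHB8 and PCDHB13, neither with a start peak, are alike over much of their length, with scattered mismatches. Whether reads were lost at such copies was not tested. Other motifs were also searched on both strands, and the core of the CTCF consensus was searched as 1 strict string. That string was found in 1 of 47 member promoters, a beta promoter, and in 2.72% of all promoters. Looser forms of the consensus were not searched. The conserved element, near which CTCF binds, was not compared with the consensus. The low counts of these strings therefore do not show that member promoters lack CTCF motifs. TATAAA was in 3 alpha, 1 beta and 2 gamma promoters, against 9.75% of all promoters. A match is a description of the letters and not a binding site.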

How the data were processed

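ATAC-seq peaks of 1 hCMEC/D3 library were analysed; the 2 RNA libraries were not. Grouping and replicate numbers came from the sample titles. Per the file headers, the authors called broad peaks with MACS 2.2.7.1 on this library without a control, in single-end mode, with a tag shift of -100 bp, an extension of 200 bp and q limits of 0.05 (0.1 for broad regions). Per the file headers, 22188172 of 31532245 tags remained after keeping 1 per position, and the genome size was 1870000000 bp, the caller's mouse preset, which sets the floor of the local background and so affects fold and q. For each peak the deposited file gives the pileup signal, a fold (a ratio to the local background), and p and q as −log10 values; these are the authors' values, used only to describe or filter peaks. Bowtie2, SAMtools 1.13, Picard and the builds GRCh38 and mm10 are named, without role, per the submitters' processing notes. On chromosome 5, 72.5% of protein-coding starts had a peak within 1 kb, and 12.3% to 15.0% did after offsets of 5 to 50 kb, so the RefSeq GRCh38.p14 table was used to place peaks.

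Starts came from the strand in the RefSeq promoter table (250 bases before to 50 after the start); 4 members without an entry took the strand of the genes whose last exon they share, and for 2 beta genes both ends were used. A peak counted with an overlap of 1 bp. The element window was 22 bases before CGCT to 4 after it; of several, the one most alike those of the same cluster was taken. Named genes were every member with a start peak (its peak of highest pileup), members without one by cluster, peaks away from starts, and listed protocadherins and regulators. Members, lists and tests were chosen with earlier results of these data known. Placement was tested on simulated data. Python 3.11.15, pandas 2.3.3 and scipy 1.17.1 were used. Expression of the members and shared protein ends, both planned, were not analysed here.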

Additional observations from a re-analysis of the deposited data

How the results depend on the processing

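Windows of 500 bp and 2.5 kb and an overlap of at least 200 bp changed no count of peaks or of members in any cluster, and beta stayed at 0 peaks and 0 members in every setting run. With −log10 q of at least 5, and likewise with a fold of at least 4, alpha had 1 peak and 1 member with a start peak (PCDHAC1) and gamma had 13 peaks and 12 members; the share of protein-coding genes was then 65.5% and 54.0%. With peaks of at least 20 tags only, a filter chosen after seeing the data, alpha had 0 peaks, 0 members by the start and 0 by the wider rule, and gamma had 8 peaks and 6 members with a median pileup of 25.7 tags, against 62.7% of protein-coding genes; fewer peaks follow from the filter itself. Of 71 alternative values, 61 stayed within 1.5 times the reported one and 10 moved. With only the bases before the start, CGCT was in 13 of 14 beta promoters. No paired analysis was possible because there is 1 ATAC sample and the RNA samples were not used. With 1 library there is no replicate error, and peaks near the lowest pileup called, such as that of PCDHGA3, are the least certain.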
